A study of Mus musculus with 12 samples.

Results

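The 45 cell cycle genes described here are genes whose RNA is made in quantity by dividing cells. They were taken by symbol from the 32285 genes of the count matrices, and every one of the 45 had a row. Of these, 20 act in S phase, when DNA is copied, 23 act in G2 and mitosis (G2/M), when chromosomes are condensed and separated, and 2 (Stmn1 and Tubb5) belong to neither list and encode proteins of the microtubules. The list was drawn up with results of these libraries in view and counts as selected on the same measured values that are given here, the level and the share of cells of each gene by cell type and library. So each count and test of the 45 genes is a description of them and supports nothing further.

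The study sequenced single cells of mouse lymph nodes and asked how loss of autophagy in endothelium bears on endothelial and immune cells during skin inflammation. There were 12 libraries from C57BL/6 mice of 7 to 10 weeks, all carrying the ATG12 fl/fl allele and all given tamoxifen 5 times. The mice were either positive or negative for CDH5 CreER, a tamoxifen-activated recombinase driven by the promoter of the endothelial cadherin gene Cdh5. In Cre-positive mice the floxed gene is expected to be lost in endothelium, while the Cre-negative mice keep it. Inflammation was set off by 50 ul of 4% oxazolone, a contact sensitizer, painted on the shaved abdomen in a mixture of acetone and olive oil. Nodes were taken 3 days later, called the peak of inflammation in the series design, or 7 days later, called resolution, and vehicle mice received no oxazolone. Digested node cells were divided on CD45 beads and then sorted by flow cytometry, giving a CD31 library, labelled endothelial cells, and a CD45 library, labelled immune cells, for each of the 6 combinations of treatment and Cre. Each of these 12 groups was 1 library, and the labels do not say how many animals went into it. Cre-positive and Cre-negative stand for libraries labelled so. In every list of 6 values below, the Cre-negative library comes first and the Cre-positive library second at each time.

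A cell that is about to divide switches on its cycle genes in a fixed order. E2F transcription factors, released from the retinoblastoma protein, turn on the genes for nucleotide synthesis and replication. Later the MuvB complex with B-Myb (Mybl2) and FOXM1 turns on the genes of mitosis, many of them through a promoter element called the CHR together with CCAAT boxes. In a lymph node that drains inflamed skin, T cells that meet antigen divide, B cells divide in germinal centres, and endothelial and stromal cells divide as the node grows. High endothelial venules (HEV) are the blood vessels through which lymphocytes enter the node.

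The E2F, CHR and CCAAT motifs were looked up in the promoters of the genes, and 5 promoters are shown as examples. The sequences below are the 250 bases before the start site from RefSeq, build GRCm38.p6, 5′ to 3′ on the gene's strand, for Dut (chr2:125247265-125247514 (+ strand)), Pcna (chr2:132253181-132253430 (- strand)) and Mcm6 (chr1:128359706-128359955 (- strand)) of S phase and Hmgb2 (chr8:57511593-57511842 (+ strand)) and Top2a (chr11:99024190-99024439 (- strand)) of G2/M. Dut, Pcna, Hmgb2 and Top2a had high mean levels over the cell classes, and Mcm6 was added, after its motifs were seen, as an S gene with an E2F match. Capitals mark every match, on either strand, to the E2F motif, the CHR or CCAAT.
Dut: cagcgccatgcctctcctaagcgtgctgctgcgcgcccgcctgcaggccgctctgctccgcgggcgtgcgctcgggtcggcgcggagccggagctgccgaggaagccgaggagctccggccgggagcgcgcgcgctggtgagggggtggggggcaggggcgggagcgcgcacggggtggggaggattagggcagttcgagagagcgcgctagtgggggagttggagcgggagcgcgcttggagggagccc
Pcna: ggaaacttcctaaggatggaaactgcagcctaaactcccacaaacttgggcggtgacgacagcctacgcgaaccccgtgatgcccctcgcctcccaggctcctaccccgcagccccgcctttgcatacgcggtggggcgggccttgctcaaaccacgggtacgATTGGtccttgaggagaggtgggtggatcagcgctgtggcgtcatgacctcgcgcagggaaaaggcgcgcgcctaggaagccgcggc
Mcm6: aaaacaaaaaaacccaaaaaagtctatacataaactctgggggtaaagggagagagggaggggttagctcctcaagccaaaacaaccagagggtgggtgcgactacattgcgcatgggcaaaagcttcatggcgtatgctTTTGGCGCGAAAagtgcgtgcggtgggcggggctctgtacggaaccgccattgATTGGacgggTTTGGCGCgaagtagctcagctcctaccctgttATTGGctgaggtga
Hmgb2: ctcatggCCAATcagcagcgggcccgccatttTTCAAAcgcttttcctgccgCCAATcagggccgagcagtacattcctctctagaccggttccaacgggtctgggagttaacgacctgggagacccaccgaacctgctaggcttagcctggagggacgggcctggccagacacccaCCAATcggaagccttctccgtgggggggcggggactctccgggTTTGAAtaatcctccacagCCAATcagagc
Top2a: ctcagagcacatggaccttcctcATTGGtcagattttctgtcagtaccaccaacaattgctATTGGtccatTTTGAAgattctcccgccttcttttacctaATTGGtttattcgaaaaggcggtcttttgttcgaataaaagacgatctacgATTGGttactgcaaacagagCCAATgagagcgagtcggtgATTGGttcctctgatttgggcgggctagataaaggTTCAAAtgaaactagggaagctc
The Top2a sequence holds a CHR 23 bases before the start and 6 CCAAT matches, and the Hmgb2 sequence a CHR 30 bases before the start and 4 CCAAT matches. The Mcm6 sequence holds 3 E2F matches, 2 of which share bases, and 2 CCAAT matches, whereas Pcna has a single CCAAT match 87 bases before the start and Dut has no match of any kind. Slbp, next to Dut and Pcna in mean level among the S genes, also held no E2F match.

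Over a window of 250 bases before to 50 bases after the start, 39 of the 45 genes matched a RefSeq promoter, with 41 sequences because Mcm7 and Uhrf1 have 2 each. Aurkb, Ccna2, Gins2, Mcm4, Stmn1 and Tpx2 were not matched. The E2F motif (TTTGGCGC, TTTCGCGC, TTTGCCGC or TTTCCCGC) was in 8 of 20 S promoters (40.0%) and 1 of 20 G2/M promoters (5.0%), against 2.26% of 32851 promoters. The CHR (TTTGAA) was in 2 of 20 S promoters and 14 of 20 G2/M promoters (70.0%), against 17.9% of all promoters. It lay within 50 bases of the start in 13 of the G2/M promoters (65.0%) against 4.94% of all. CCAAT was in 13 S promoters (65.0%) and 18 G2/M promoters (90.0%), against 37.4% of all, and a CHR and a CCAAT stood in the same window in 14 G2/M promoters against 6.95% of all. Both strands were searched, and a match states only that the letters are present. The bar plot of motif matches sets these shares side by side.

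**Figure D1:**
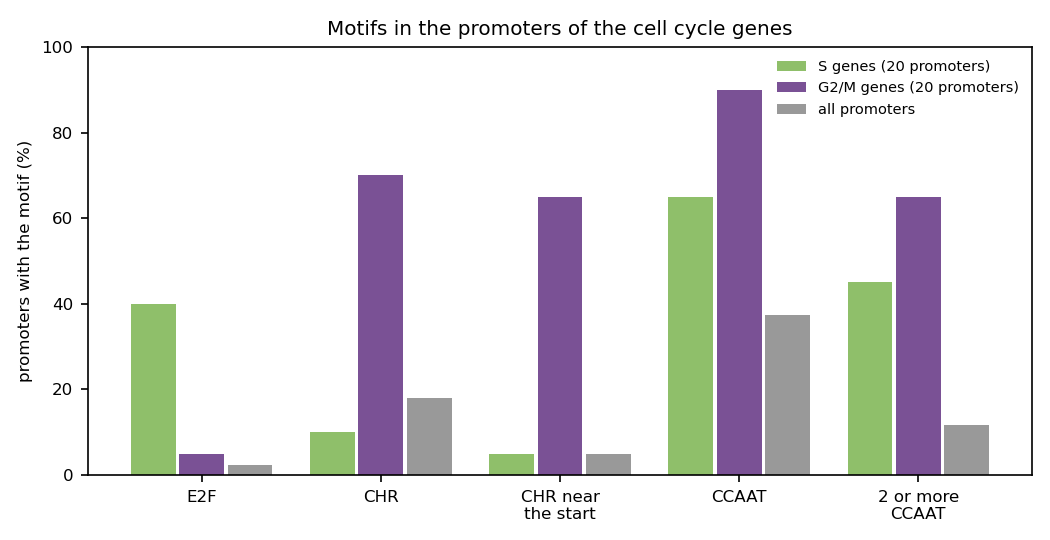
Percent of promoters (vertical axis) that hold each motif, for the S genes, the G2/M genes and all promoters of the same length. E2F matches stand highest among the S genes at 40.0%, and CHR matches among the G2/M genes at 70.0%.

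The libraries held 5698 to 10553 cells after filtering, from 36724887 to 76186801 counted molecules (UMIs) each. Cell types were rebuilt by clustering without the cycle genes, to keep dividing cells with their type as far as their other genes allow, and names ending in -like rest on marker genes. The content of the fractions went beyond their labels: T cell-like and B cell-like cells were found in every CD31 library, and fibroblast-like cells in every CD45 library. A cluster of cells with few UMIs and mixed markers held 2127 of 10553 cells in the CD31 day 3 Cre-positive library and 555 of 9229 cells in the CD31 vehicle Cre-negative library. The other 4 had at most 19 each. The few-UMI cells had been clustered again on their own variable genes, and the sub-clusters with mixed markers were kept out of the named types. RNA outside cells also carried the genes: in droplets of 10 to 100 UMIs the summed G2/M level was 962 and 354 CPM in vehicle, 2089 and 3584 at day 3 and 298 and 704 at day 7 in the CD31 fraction. It was 1192 and 716 CPM in vehicle, 2781 and 2646 at day 3 and 494 and 766 at day 7 in the CD45 fraction. This free RNA moved with the groups, and its part in the results was not tested. No 2 libraries shared more than 27 cell barcodes. Atg12, the targeted autophagy gene, was at 52.5 and 73.7 CPM in the vehicle libraries, 45.9 and 59.4 CPM at day 3 and 51.7 and 64.0 CPM at day 7 in blood endothelial-like cells. Levels from 3′ tags do not check the Cre labels unless the deleted part holds the tag, and that part is not given in the sources used here. Levels are given in CPM, the summed UMIs of a gene scaled to a fixed total for each cell class and library. Each molecule counts once from its 3′ end, so gene length does not enter. Changes were fitted with edgeR on the 6 libraries of a fraction, with treatment and Cre as terms and 2 residual degrees of freedom, and p-values were adjusted by Benjamini-Hochberg over all genes tested, with a threshold of 0.05. With 1 library per group, the spread is estimated from what these terms leave over, and a p-value measures spread between libraries only. The contrasts share libraries. The share of cells with G2/M genes is the percent of cells with a UMI of at least 3 of the 23 G2/M genes after each cell was thinned to 1000 UMIs, with an exact 95% interval that covers counting error only.

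In blood endothelial-like cells every one of the 45 genes stood higher in both day 3 libraries than in the other 4 CD31 libraries. Among all genes with at least 60 UMIs, 19.6% did so. The fitted day 3 changes against vehicle ran from 0.52 to 2.78 on the log2 scale with a median of 1.88, against −0.02 over all genes. The median was 1.25 for the S genes and 2.17 for the G2/M genes. None of the 45 passed the edgeR threshold (0% of all genes did), with adjusted p-values from 0.0681 to 0.129. All 45 had unadjusted p-values under 0.05, as did 24.3% of all genes. By DESeq2, 30 of them passed, as did 6.2% of the genes it gave an adjusted p. The edgeR count rested on which libraries entered. Leaving out the vehicle Cre-negative library or either day 7 library changed it, and leaving out any one of the other 3 did not.

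Among the S genes, Pcna, the sliding clamp of the replication fork, was at 61.05 and 68.04 CPM in vehicle, 105.9 and 100.4 at day 3 and 61 and 65.99 at day 7 in blood endothelial-like cells (log2 change 0.74, SE 0.10, adjusted p = 0.0681). Mcm5, a subunit of the helicase that opens DNA, was at 10.04 and 8.21 CPM in vehicle, 25.6 and 25.2 at day 3 and 7.54 and 10.8 at day 7 (log2 change 1.54, SE 0.19, adjusted p = 0.0681). Both were present in all 6 libraries, and the day 3 values stood above the others without overlap. Tyms, thymidylate synthase, was at 35.9 and 29.2 CPM in vehicle, 84.1 and 82.2 at day 3 and 30.3 and 37.5 at day 7 (log2 change 1.42, SE 0.14, adjusted p = 0.0681). Rrm2, the small subunit of ribonucleotide reductase, was at 6.25 and 2.996 CPM in vehicle, 26.2 and 24.5 at day 3 and 1.79 and 6.89 at day 7 (log2 change 2.50, SE 0.59, adjusted p = 0.0932). Rrm2 had the larger log2 difference of the pair, from a lower vehicle level, and neither fit passed the threshold.

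Among the G2/M genes, Mki67, the Ki-67 protein of the mitotic chromosome surface, was at 27.8 and 14.4 CPM in vehicle, 82.9 and 84.1 at day 3 and 10.02 and 29.2 at day 7 (log2 change 2.03, SE 0.51, adjusted p = 0.0984). Top2a, the topoisomerase that untangles replicated DNA, was at 39.4 and 16.5 CPM in vehicle, 119 and 142 at day 3 and 12.5 and 40.1 at day 7 (log2 change 2.24, SE 0.60, adjusted p = 0.111). In each, the lower of the day 3 libraries exceeded the highest of the other 4, and the vehicle Cre-negative and day 7 Cre-positive libraries were the next in order. Cdk1, the kinase that drives entry into mitosis, was at 22.4 and 11.6 CPM in vehicle, 64.2 and 66.8 at day 3 and 10.7 and 20.5 at day 7 (log2 change 2.01, SE 0.38, adjusted p = 0.0742). Its partner cyclin Ccnb1 was at 3.69 and 1.498 CPM in vehicle, 14.6 and 15.7 at day 3 and 1.29 and 5.01 at day 7 (log2 change 2.57, SE 0.64, adjusted p = 0.0976). The microtubule genes followed the same order of libraries with smaller changes: Stmn1, which destabilizes microtubules, had a log2 change of 1.69 (SE 0.44) and the tubulin gene Tubb5 one of 0.88 (SE 0.11).

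At day 7 the genes of blood endothelial-like cells lay below the day 3 libraries, and against vehicle they moved in opposite directions in the Cre groups. In the Cre-negative libraries 44 of the 45 were lower at day 7 than in vehicle, as were 68.6% of genes with 60 UMIs. In the Cre-positive libraries 44 of the 45 were higher at day 7 than in vehicle, as were 54.8% of such genes. Each side is 1 library against 1, and the difference between the sides was not tested. T cell-like, B cell-like and fibroblast-like cells were split the same way, as given with each. The G2/M level in free RNA of the same libraries was 962 CPM in vehicle and 298 CPM at day 7 in the Cre-negative pair and 354 and 704 CPM in the Cre-positive pair, and its part was not tested. The fitted change of day 7 against vehicle averages both, with a median of −0.05, against 0.01 for all genes. No gene of the 45 passed edgeR (0% of all genes), DESeq2 called 0 and none had an unadjusted p under 0.05 (2.53% of all genes had). Against day 3, the day 7 median was −1.95, with −1.20 for S genes and −2.32 for G2/M genes. There edgeR again called 0 of 45 (0% of all genes) at adjusted p-values of 0.0709 to 0.152, while all 45 unadjusted p-values were under 0.05 (21.3% of all genes) and 28 passed in DESeq2 (4.43% of all genes). The edgeR count changed without any one of the vehicle or day 7 libraries, and did not change without either day 3 library.

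Cells with at least 3 G2/M genes made up 1.68 and 0.73% in vehicle, 6.27 and 8.30% at day 3 and 0.548 and 1.79% at day 7 of the blood endothelial class. The day 3 libraries held 6.27% (246 of 3923 cells, interval 5.53 to 7.08%) and 8.30% (423 of 5095 cells, interval 7.56 to 9.09%), above the other 4. Without thinning the shares were 4.73 and 2.39% in vehicle, 12.3 and 17.5% at day 3 and 2.34 and 6.02% at day 7. Top2a alone was seen in 3.41 and 1.94% in vehicle, 9.25 and 12.3% at day 3 and 1.59 and 4.29% at day 7 of unthinned blood endothelial-like cells. In the capillary-like cells among them, which stayed low at every time, it was seen in 0.649 and 0.202% in vehicle, 0.794 and 1.09% at day 3 and 0.378 and 1.09% at day 7. Median UMIs per cell were 3982 and 3900 in vehicle, 3372 and 4217 at day 3 and 4192 and 4672 at day 7 in blood endothelial-like cells. In capillary-like cells they were 2808 and 2699 in vehicle, 2126 and 1858 at day 3 and 2238 and 2716 at day 7.

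The types within the blood endothelium differed widely. Capillary-like cells had a share of 0.371 and 0.101% in vehicle, 0.183 and 0.0988% at day 3 and 0.189 and 0.409% at day 7. Their summed G2/M level was 272 and 203 CPM in vehicle, 216 and 281 at day 3 and 163 and 242 at day 7. Arterial-like cells had 0.142 and 0% in vehicle, 5.90 and 5.76% at day 3 and 0.242 and 0.994% at day 7, where the value of 0 is 0 of 446 cells and allows a share of up to 0.673%. Tip-like cells, named from genes of sprouting endothelium such as Apln and Esm1, had 3.83 and 1.07% in vehicle, 16.1 and 13.2% at day 3 and 1.20 and 1.99% at day 7. Both types had their highest shares in the day 3 libraries. An endothelial cluster led by Penk had 1.44 and 0.523% in vehicle, 7.09 and 6.99% at day 3 and 0.146 and 1.55% at day 7. The dot plot of shares by type shows the low capillary-like and the higher tip-like values.

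**Figure D2:**
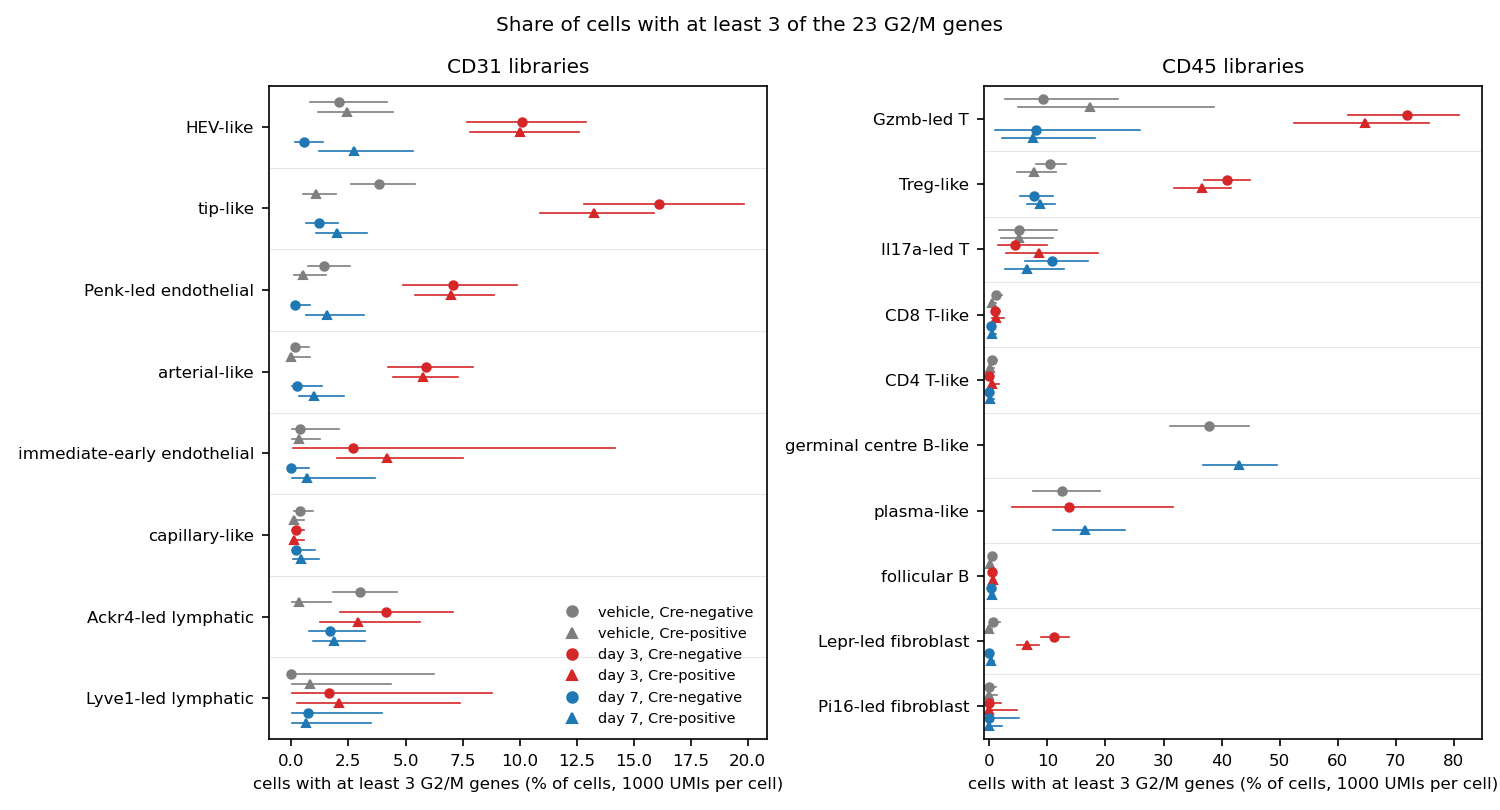
Percent of cells with at least 3 of 23 G2/M genes after thinning to 1000 UMIs (horizontal axis), by cell type and library, with 95% exact intervals, omitting groups under 20 cells. Gzmb-led T and Treg-like cells reach the highest day 3 shares, and capillary-like endothelial cells, follicular B cells and Pi16-led fibroblasts stay near 0.

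HEV-like cells, which express the HEV genes Glycam1, Chst4 and Fut7, were fitted separately after their shares had been seen. Their share was 2.06 and 2.44% in vehicle, 10.1 and 10.02% at day 3 and 0.539 and 2.74% at day 7. These were 339 and 410 cells in vehicle, 555 and 649 at day 3 and 742 and 292 at day 7. Of the 45 genes, 28 rose at day 3 against vehicle in edgeR, where 5.12% of all genes passed and 3.02% were higher. These were 8 of 20 S genes, 19 of 23 G2/M genes and 1 of the other 2. The median log2 change was 1.65, with 1.26 for S and 2.10 for G2/M genes. Each of the 45 was higher in both day 3 libraries than in the other 4, as were 22.1% of genes with at least 60 UMIs. DESeq2 gave 16 of the 45 an adjusted p and called 11, against 9.49% of all genes with one. The edgeR count depended on which libraries entered, and none of the 45 was called without the day 3 Cre-negative library. It was lower without the vehicle Cre-positive or the day 3 Cre-positive library. At day 7, 33 of the 45 were lower than in vehicle in the Cre-negative libraries (65.9% of genes with 60 UMIs) and 22 were higher in the Cre-positive libraries (53% of such genes).

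Tyms had the lowest p of the 45 in HEV-like cells, at 31.98 and 33.7 CPM in vehicle, 95.7 and 96.2 at day 3 and 28.9 and 43.4 at day 7 (log2 change 1.54, SE 0.15, adjusted p = 0.0228). Top2a followed at 15.99 and 28.9 CPM in vehicle, 85 and 119 at day 3 and 11.9 and 36.8 at day 7 (log2 change 2.22, SE 0.23, adjusted p = 0.0245). For both genes the day 3 values lay above all others, and the day 7 Cre-negative library was the lowest for Top2a. Cenpf, a kinetochore protein, was at 9.18 and 15 CPM in vehicle, 45.8 and 45.3 at day 3 and 5.84 and 11.1 at day 7 (log2 change 1.92, SE 0.23, adjusted p = 0.0251) in HEV-like cells. Cks2, a small subunit of cyclin-dependent kinases, was at 12.7 and 24.5 CPM in vehicle, 84.5 and 88.8 at day 3 and 11.3 and 30.4 at day 7 (log2 change 2.27, SE 0.28, adjusted p = 0.0251). Cenpa (centromeric histone H3), Dut (dUTPase), Nusap1 (a spindle protein) and Tpx2 (a spindle assembly factor) completed the 8 lowest p-values, with log2 changes of 1.71 (SE 0.22), 1.36 (SE 0.19), 2.35 (SE 0.33) and 1.99 (SE 0.27). Outside that list, Pcna was at 50.3 and 72.9 CPM in vehicle, 90.4 and 95.8 at day 3 and 52.3 and 62.7 at day 7 (log2 change 0.59, SE 0.15, adjusted p = 0.0605). Mki67 was at 23.98 and 32.4 CPM in vehicle, 67.2 and 69.3 at day 3 and 12.4 and 27.2 at day 7 (log2 change 1.28, SE 0.22, adjusted p = 0.0315). Between day 3 and day 7, 28 of the 45 fell (2.39% of all genes passed and 1.49% were lower), 7 of them S and 20 G2/M genes, with a median of −1.92. In this contrast none of the 45 was called without the day 3 Cre-negative library, and fewer were without the day 7 Cre-negative library.

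Lymphatic endothelial-like cells showed smaller day 3 changes and less orderly values than the blood endothelial-like and HEV-like cells. The summed G2/M level was 461 and 220.3 CPM in vehicle, 671 and 453 at day 3 and 507 and 342 at day 7. The share of cells was 2.74 and 0.445% in vehicle, 3.69 and 2.70% at day 3 and 1.504 and 1.61% at day 7. The vehicle Cre-negative library overlapped the day 3 libraries in both measures. Of 44 genes with 60 UMIs, 18 were higher in both day 3 libraries than in the other 4 (8.2% of all such genes were), 10 of 19 S genes against 6 of 23 G2/M genes and both microtubule genes. The median day 3 change was 0.71, and edgeR called 0 of 45 (0% of all genes), with 23 at an unadjusted p under 0.05 (6.04% of all genes) and 0 called by DESeq2. The edgeR count changed without either vehicle library and without either day 7 library.

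Pcna in lymphatic endothelial-like cells was at 60.9 and 50.3 CPM in vehicle, 89.9 and 70.7 at day 3 and 54.3 and 47.6 at day 7 (log2 change 0.56, SE 0.20, adjusted p = 0.698). Tyms was at 38.5 and 24.99 CPM in vehicle, 57.6 and 38.9 at day 3 and 27.2 and 23.6 at day 7 (log2 change 0.63, SE 0.22, adjusted p = 0.638). For Top2a the values were 30.4 and 17.4 CPM in vehicle, 64.1 and 32.1 at day 3 and 50.4 and 33.3 at day 7 (log2 change 1.01, SE 0.22, adjusted p = 0.3). For Top2a the day 7 values overlapped those of day 3, while the vehicle values of all 3 genes lay below day 3. Mcm5 was at 12.8 and 4.88 CPM in vehicle, 16.3 and 10.2 at day 3 and 4.78 and 7.55 at day 7 in these cells. Rrm2 was at 4.57 and 0.61 CPM in vehicle, 8.99 and 7.45 at day 3 and 2.63 and 2.96 at day 7. For Rrm2 the day 3 values lay above all others, and for Mcm5 they overlapped vehicle. Mki67 was at 16.96 and 15.5 CPM in vehicle, 38.8 and 26.4 at day 3 and 19.4 and 14.1 at day 7. Cdk1 was at 8.48 and 3.35 CPM in vehicle, 27.8 and 13.2 at day 3 and 11.2 and 6.24 at day 7. Ccnb1 was at 4.57 and 1.83 CPM in vehicle, 6.54 and 3.04 at day 3 and 6.93 and 3.12 at day 7. For these mitotic genes the Cre-positive library was the lower of the pair at every time. Stmn1 and Tubb5 had log2 changes of 0.56 (SE 0.25) and 0.59 (SE 0.25). At day 7 against vehicle edgeR and DESeq2 called 0 of 45 (0% of all genes in edgeR), with 2 at an unadjusted p under 0.05 (1.23% of all genes) and a median of 0.15. The edgeR count changed without the vehicle Cre-negative library. Of the 45, 20 were lower at day 7 than in vehicle in the Cre-negative libraries (48.3% of genes with 60 UMIs) and 34 were higher in the Cre-positive libraries (56.3%). At day 7 against day 3 edgeR and DESeq2 called 0 (0.00818% of all genes in edgeR), with 14 at an unadjusted p under 0.05 (6.5% of all genes) and a median of −0.59. Leaving out the vehicle Cre-negative, vehicle Cre-positive or day 7 Cre-positive library changed the edgeR count.

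Among T cell-like cells of the CD45 fraction, every one of the 45 genes rose at day 3 against vehicle and fell again by day 7. edgeR called all 45 higher at day 3, where 20.6% of all genes passed, 14.7% higher and 5.96% lower, with adjusted p-values of 0.00155 to 0.00688. Log2 changes ran from 0.80 to 2.92 with a median of 2.02, against −0.01 over all genes, and the S median of 1.89 was near the G2/M median of 2.05. DESeq2 also called 45, against 15.8% of all genes, and edgeR still called most of the 45 with any one library left out. Between day 3 and day 7 all 45 fell (16.8% of all genes passed, 4.51% higher and 12.3% lower), with a median of −1.92. Day 7 against vehicle gave 0 calls in edgeR and DESeq2 (0% of all genes in edgeR), and the edgeR count changed without the vehicle Cre-negative library. In this contrast 1 of the 45 had an unadjusted p under 0.05 (2.98% of all genes), with a median log2 change of 0.08. That median averages both Cre groups: 43 of the 45 were lower at day 7 than in vehicle in the Cre-negative libraries (62.5% of genes with 60 UMIs) and 44 were higher in the Cre-positive libraries (52.9%).

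Tpx2 had the lowest p of these genes in T cell-like cells, at 19.96 and 18.4 CPM in vehicle, 99.2 and 89.6 at day 3 and 15.9 and 24.1 at day 7 (log2 change 2.31, SE 0.18, adjusted p = 0.00155). Cdk1 was at 25.1 and 20.97 CPM in vehicle, 120.0 and 96.9 at day 3 and 19.5 and 27.6 at day 7 (log2 change 2.24, SE 0.19, adjusted p = 0.00155). Plk1, the polo-like kinase of mitosis, was at 8.19 and 7.96 CPM in vehicle, 59.8 and 43.8 at day 3 and 6.33 and 9.19 at day 7 (log2 change 2.68, SE 0.22, adjusted p = 0.00155). The day 3 values of these mitotic genes stood well clear of the other 4 libraries. Rrm1, the large subunit of ribonucleotide reductase, was at 25.9 and 21.2 CPM in vehicle, 81.3 and 87.3 at day 3 and 21 and 28.1 at day 7 (log2 change 1.84, SE 0.15, adjusted p = 0.00155). Mcm7, another helicase subunit, was at 47.6 and 41.1 CPM in vehicle, 118 and 105.3 at day 3 and 45.2 and 52.6 at day 7 (log2 change 1.34, SE 0.12, adjusted p = 0.00155). Nusap1, Aurkb (the Aurora B kinase) and Ccna2 (cyclin A2) had log2 changes of 1.70 (SE 0.13), 2.15 (SE 0.19) and 2.36 (SE 0.21).

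Mki67 was at 66.3 and 52.2 CPM in vehicle, 200.5 and 237 at day 3 and 38.1 and 70.4 at day 7 in T cell-like cells (log2 change 1.87, SE 0.23, adjusted p = 0.00223). Top2a was at 125 and 84.8 CPM in vehicle, 373 and 359 at day 3 and 80.5 and 109.5 at day 7 (log2 change 1.82, SE 0.19, adjusted p = 0.0016). Ccnb1 was at 15.4 and 10.2 CPM in vehicle, 68.6 and 66.5 at day 3 and 8.96 and 15.6 at day 7 (log2 change 2.41, SE 0.25, adjusted p = 0.00155). Of the S genes, Pcna was at 85.5 and 76.2 CPM in vehicle, 191 and 201 at day 3 and 72.5 and 95.5 at day 7 (log2 change 1.28, SE 0.13, adjusted p = 0.00155). Each was higher in both day 3 libraries than in the other 4, whether the gene acts in S phase or in mitosis. Mcm5 was at 24.9 and 16.2 CPM in vehicle, 74.7 and 83.6 at day 3 and 22.2 and 37.03 at day 7 (log2 change 1.94, SE 0.25, adjusted p = 0.00258). Tyms was at 37.2 and 17.2 CPM in vehicle, 122 and 116 at day 3 and 20.1 and 34.9 at day 7 (log2 change 2.16, SE 0.33, adjusted p = 0.00468). Rrm2 was at 31.99 and 14.9 CPM in vehicle, 169 and 151 at day 3 and 27.7 and 37.9 at day 7 (log2 change 2.81, SE 0.28, adjusted p = 0.00155). Stmn1 and Tubb5 moved in the same direction, by 1.71 (SE 0.22) and 0.93 (SE 0.10) on the log2 scale. From day 3 to day 7 Plk1 had a log2 change of −2.71 (SE 0.22), Nusap1 by −2.04 (SE 0.13) and the chromatin protein gene Hmgb2 by −1.81 (SE 0.16).

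**Figure D3:**
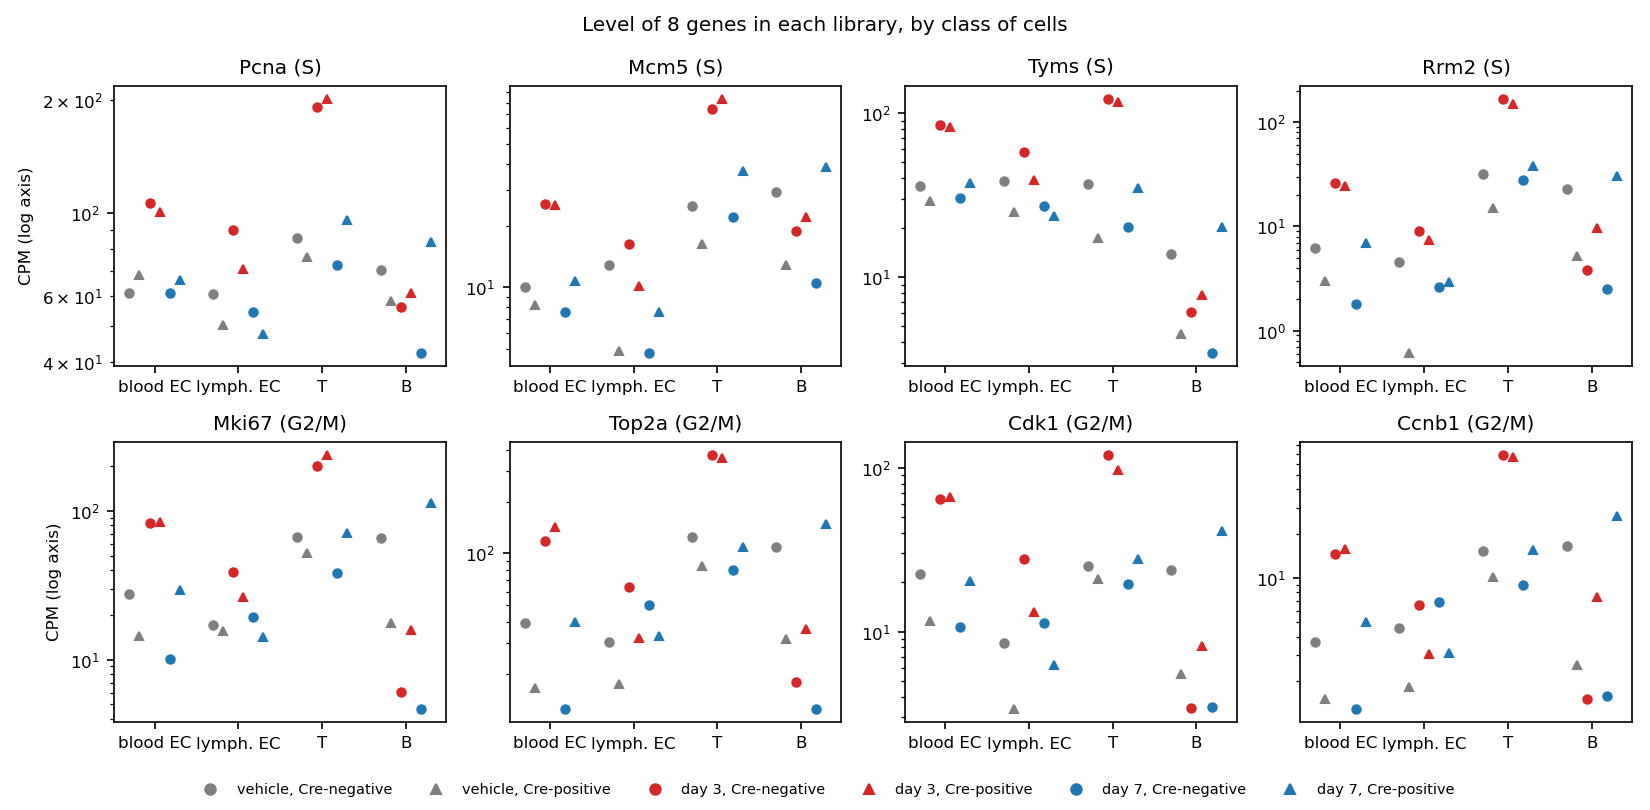
CPM on a log axis (vertical) of Pcna, Mcm5, Tyms, Rrm2, Mki67, Top2a, Cdk1 and Ccnb1 in each library, for blood endothelial-like, lymphatic endothelial-like, T cell-like and B cell-like cells. The day 3 points stand above the others in T cell-like and blood endothelial-like cells, and in B cell-like cells the vehicle Cre-negative and day 7 Cre-positive points are the high ones for the mitotic genes.

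The high T cell shares lay in particular clusters. The share of T cell-like cells with at least 3 G2/M genes was 3.64 and 1.88% in vehicle, 13.3 and 13.6% at day 3 and 1.77 and 2.96% at day 7. Among T cell-like cells found in CD31 libraries it was 5.50 and 2.33% in vehicle, 17.99 and 27.7% at day 3 and 2.24 and 4.30% at day 7. CD4 T-like and CD8 T-like cells stayed at 1.19% or less in every CD45 library. In the CD31 libraries the day 3 share of CD4 T-like cells differed from vehicle by 1.32 and 3.65 percentage points. That of CD8 T-like cells differed by −1.07 and 3.73, so both rose there in the Cre-positive pair. Treg-like cells, led by Foxp3, Ctla4, Il2ra and Tnfrsf4, had 10.4 and 7.69% in vehicle, 40.9 and 36.6% at day 3 and 7.74 and 8.68% at day 7 in the CD45 libraries. In the CD31 libraries they had 13.5 and 8.63% in vehicle, 51.02 and 53.05% at day 3 and 11.1 and 11.1% at day 7. A cluster of T cells led by Gzmb, the gene of the killing enzyme granzyme B, had 9.30 and 17.4% in vehicle, 72.04 and 64.8% at day 3 and 8 and 7.55% at day 7. It was small, with 43 and 23 cells in vehicle, 93 and 71 at day 3 and 25 and 53 at day 7. A cluster led by Il17a had 5.16 and 5.17% in vehicle, 4.35 and 8.47% at day 3 and 10.7 and 6.48% at day 7, with no common order of the times. Depth moved with the shares: the median UMIs per cell were 4836 and 5146 in vehicle, 10577 and 14401 at day 3 and 3936 and 5600 at day 7 in Treg-like cells. In Gzmb-led cells they were 6936 and 10724 in vehicle, 32363 and 31663 at day 3 and 6863 and 9264 at day 7, and the shares are given after thinning to equal depth.

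In Treg-like cells Top2a was at 304 and 357 CPM in vehicle, 576 and 541 at day 3 and 295 and 256 at day 7. Pcna was at 138 and 134 CPM in vehicle, 256 and 264 at day 3 and 119.5 and 142 at day 7. In Gzmb-led cells Top2a was at 249.4 and 402 CPM in vehicle, 631 and 667 at day 3 and 209 and 202 at day 7. Their Pcna was at 114 and 129.8 CPM in vehicle, 331 and 355 at day 3 and 172 and 183 at day 7. Both clusters carried Top2a above 200 CPM in every library, and the day 3 levels were the highest. Among the Treg-like cells of the day 3 libraries that had at least 3 G2/M genes, 36 and 43.9% had a Foxp3 UMI. The summed Foxp3 level was 32.8 and 61.7 CPM against 72.7 and 77.9 CPM in the other cells of the cluster. The cluster was named from its leading genes, and in both libraries its cells with G2/M genes had less of the defining gene Foxp3 than the rest.

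B cell-like cells followed no day 3 pattern. Their summed G2/M level was 1619 and 702 CPM in vehicle, 406 and 719 at day 3 and 486 and 2035 at day 7. The share of cells was 2.86 and 0.508% in vehicle, 0.385 and 0.561% at day 3 and 0.326 and 4.04% at day 7. The high libraries were vehicle Cre-negative and day 7 Cre-positive. Those also held most of the germinal centre B-like cells, with 209 and 14 cells in vehicle, 7 and 7 at day 3 and 7 and 246 at day 7. In the larger groups the share of such cells with at least 3 G2/M genes was 37.8% (79 of 209 cells, interval 31.2 to 44.8%) in the vehicle Cre-negative library and 43.1% (of 246 cells, interval 36.8 to 49.5%) in the day 7 Cre-positive library. Follicular B cells had 0.462 and 0.155% in vehicle, 0.393 and 0.532% at day 3 and 0.222 and 0.497% at day 7, in the same libraries.

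Of the 45 genes in B cell-like cells, none was higher in both day 3 libraries than in the other 4 (8.45% of genes with 60 UMIs were). edgeR called 0 of 45 in each contrast, as it called 0% of all genes in each. DESeq2 called 0 too, and the share of all genes it called there is not given. At day 3 against vehicle 1 had an unadjusted p under 0.05 (4.29% of all genes), with medians of −0.38 for S genes and −1.80 for G2/M genes. The edgeR count there changed without either day 7 library. At day 7 against vehicle 0 had an unadjusted p under 0.05 (1.39% of all genes), with a median of −0.06, and the edgeR count changed without either day 7 library. There 44 of the 45 were lower at day 7 than in vehicle in the Cre-negative libraries (50.4% of genes with 60 UMIs) and 44 were higher in the Cre-positive libraries (44.8%). At day 7 against day 3 the median was 0.94 with 1 unadjusted p under 0.05 (5.88% of all genes), and the edgeR count changed without either day 7 library.

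Pcna in B cell-like cells was at 70.5 and 58.3 CPM in vehicle, 56.01 and 61.3 at day 3 and 42.3 and 83.3 at day 7 (log2 change −0.15, SE 0.31, adjusted p = 0.993). Top2a was at 108.6 and 31.96 CPM in vehicle, 17.97 and 36.4 at day 3 and 12.5 and 148 at day 7 (log2 change −1.74, SE 1.17, adjusted p = 0.993). The spread between the Cre groups at the same time was larger for Top2a than for Pcna. Mki67 was at 65.2 and 17.6 CPM in vehicle, 6.02 and 15.9 at day 3 and 4.64 and 112.1 at day 7. Cdk1 was at 23.8 and 5.50 CPM in vehicle, 3.41 and 8.10 at day 3 and 3.45 and 41.4 at day 7. Ccnb1 was at 16.6 and 2.56 CPM in vehicle, 1.51 and 7.44 at day 3 and 1.59 and 26.6 at day 7. Each of these mitotic genes had its lowest values in the Cre-negative libraries of day 3 and day 7. Mcm5 was at 29.3 and 12.9 CPM in vehicle, 18.9 and 22.2 at day 3 and 10.5 and 38.8 at day 7. Tyms was at 13.8 and 4.47 CPM in vehicle, 6.12 and 7.77 at day 3 and 3.45 and 20.1 at day 7. Rrm2 was at 22.8 and 5.24 CPM in vehicle, 3.81 and 9.67 at day 3 and 2.52 and 30.3 at day 7. The day 7 Cre-positive library was the highest for Pcna and each of these S genes. Stmn1 was at 195 and 38.5 CPM in vehicle, 39.5 and 54.9 at day 3 and 31.3 and 247 at day 7. Tubb5 was at 293 and 201 CPM in vehicle, 219.7 and 216 at day 3 and 205 and 353 at day 7. The S genes Pcna and Mcm5 varied less between libraries than the mitotic genes, which were high in the libraries with germinal centre B-like cells. In those cells Top2a was at 537.8 CPM in the vehicle Cre-negative library and 597 CPM in the day 7 Cre-positive library.

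Fibroblast-like cells, which the CD45 libraries held beside the immune cells, were also fitted after their shares had been seen. Their share was 0.511 and 0% in vehicle, 9.24 and 6.20% at day 3 and 0.0895 and 0.514% at day 7, where the value of 0 is 0 of 1532 cells and allows up to 0.196%. Of the 45 genes, 39 rose at day 3 (11.7% of all genes passed and 6.05% were higher), 16 of 20 S and 21 of 23 G2/M genes, with a median of 1.65 for S and 3.56 for G2/M genes. DESeq2 called 34, against 11.8% of all genes. Each of the 45 was higher in both day 3 libraries than in the other 4, as were 20.6% of genes with 60 UMIs. No gene of the 45 was called without either of the day 3 libraries. Between day 3 and day 7, 25 fell (2.93% of all genes passed and 1.89% were lower), with a median of −2.31. In this contrast none of the 45 was called without either day 3 library, or when cells scored as doublets were kept. At day 7, 37 of the 45 were lower than in vehicle in the Cre-negative libraries (54.3% of genes with 60 UMIs) and 35 were higher in the Cre-positive libraries (55.3%).

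Tpx2 was at 10.7 and 10.7 CPM in vehicle, 69.3 and 45.5 at day 3 and 16.9 and 16.5 at day 7 in fibroblast-like cells (log2 change 2.43, SE 0.22, adjusted p = 0.00311), the lowest p of the 45. Cenpa was at 10.04 and 3.85 CPM in vehicle, 81.96 and 39.2 at day 3 and 7.84 and 8.002 at day 7 (log2 change 3.21, SE 0.31, adjusted p = 0.00408) in the same cells. Tk1, thymidine kinase, was at 7.53 and 5.48 CPM in vehicle, 30.2 and 23.2 at day 3 and 7.84 and 8.53 at day 7 (log2 change 2.09, SE 0.21, adjusted p = 0.00459). The vehicle levels of these 3 genes were 3.85 to 10.7 CPM, and both day 3 libraries exceeded every other library. Cenpe (a kinetochore motor), Hmgb2, Mcm5, Tyms and Uhrf1 (which carries DNA methylation through replication) had log2 changes of 3.56 (SE 0.38), 1.72 (SE 0.18), 2.42 (SE 0.28), 1.58 (SE 0.20) and 3.54 (SE 0.45). A cluster led by Lepr had a share of 0.648 and 0% in vehicle, 11.2 and 6.43% at day 3 and 0 and 0.202% at day 7. A cluster led by Pi16 had 0 such cells in all 6 libraries. The 0 of 339 cells in the vehicle Cre-negative library allows a share of up to 0.885%. At day 3, 0 of 190 and 0 of 77 cells allow up to 1.58% and 3.9%. Its summed G2/M level was 82.8 and 65.6 CPM in vehicle, 98.4 and 67.6 at day 3 and 62.2 and 41.5 at day 7.

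The other classes, and the T cell-like and B cell-like cells of the CD31 libraries, were not fitted. Among conventional type 1 dendritic (cDC1-like) cells the share was 22.2 and 7.69% in vehicle, 25 and 8.70% at day 3 and 9.09 and 3.70% at day 7, from 23 to 54 cells a library. Their highest members were Dut and Pcna of S phase and Hmgb2 and Ube2c, an E2 enzyme of the anaphase-promoting complex, of G2/M. Over the 6 libraries Dut, Hmgb2 and Ube2c had means of 115.9, 974 and 152 CPM. Plasma-like cells reached 12.5% (18 of 144 cells, interval 7.58 to 19.03%) in the vehicle Cre-negative library and 16.4% (25 of 152 cells, interval 10.9 to 23.3%) in the day 7 Cre-positive library. Over the 6 libraries, which held 3 to 152 plasma-like cells each, Dut, Rrm2, Hmgb2 and Ube2c led with means of 93.0, 63.9, 503 and 144 CPM. In natural killer (NK-like) cells the leading members were Slbp, the histone mRNA binding protein, and Dut at 114 and 92.4 CPM and Hmgb2 and Top2a at 812 and 68.8 CPM. Macrophage-like cells of the CD31 libraries reached 29.3% (55 of 188 cells, interval 22.9 to 36.3%) at day 3 in the Cre-positive library. That library also held most cells of a cluster of few-UMI droplets of mixed type. Its macrophage-like cells with the genes had a median of 1391 UMIs against 1716 in the others, near the 1418 and 1331 of the mixed cluster. The share was 0 of 47 and 0 of 21 cells in vehicle and 0 of 30 in the day 7 Cre-positive library. These allow up to 6.38%, 14.3% and 10%. Monocyte and macrophage-like cells of the CD45 libraries were led by Pcna and Slbp at 82.2 and 56.8 CPM and Hmgb2 and Cks2 at 651 and 85.9 CPM. In migratory dendritic-like cells Slbp and Pcna had 35.4 and 29.7 CPM and Hmgb2 and Top2a 188 and 19.8 CPM. Plasmacytoid dendritic (pDC-like) cells had a share of 0 in all 6 CD45 libraries, from 31 to 91 cells, where 0 of 91 allows up to 3.3%. Neutrophil-like cells, 4 to 29 a library, had a summed G2/M level of 1401 to 2143 CPM, of which Hmgb2 alone made a mean of 1436 CPM, followed by Cks2 at 171 CPM, while their leading S genes Pcna and Mcm4 had 30.1 and 17.5 CPM.

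The balance of S and G2/M genes differed between classes. The summed S level of T cell-like cells was 702 and 518 CPM in vehicle, 2064 and 1981 at day 3 and 595 and 836 at day 7. The G2/M level was 1687 and 1178 CPM in vehicle, 5279 and 4800 at day 3 and 1154 and 1479 at day 7. In blood endothelial-like cells the S level was 361 and 319 CPM in vehicle, 692 and 681 at day 3 and 294 and 387 at day 7. Their G2/M level was 514 and 314 CPM in vehicle, 1349 and 1490 at day 3 and 248 and 523 at day 7. The ratio of S to G2/M in blood endothelial-like cells was 0.702 and 1.02 in vehicle, 0.513 and 0.457 at day 3 and 1.18 and 0.74 at day 7, lowest at day 3. For T cell-like cells it was 0.416 and 0.44 in vehicle, 0.391 and 0.413 at day 3 and 0.516 and 0.565 at day 7. Pi16-led fibroblasts, with no cell past the G2/M count, had ratios of 2.58 and 3.29 in vehicle, 2.67 and 3.33 at day 3 and 2.62 and 4.40 at day 7, so the S sum exceeded the G2/M sum in each. The bars of summed levels show these balances together with the free RNA.

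One gene, Hmgb2, took a large part of the G2/M sum. Its share of G2/M UMIs was 43.8 and 54.8% in vehicle, 32.1 and 32.6% at day 3 and 56.8 and 41.8% at day 7 in blood endothelial-like cells. In T cell-like cells it was 51 and 50.3% in vehicle, 46.2 and 47.7% at day 3 and 52 and 48.9% at day 7. In B cell-like cells it was 50.7 and 63% in vehicle, 62 and 59.5% at day 3 and 62.7 and 43.9% at day 7. Hmgb2, a chromatin protein of the high mobility group, is also made by cells that do not divide, and its share in blood endothelial-like cells was lowest in the day 3 libraries. The share of cells with at least 3 G2/M genes counts Hmgb2 as 1 gene among 23. The plot of changes per gene gives each member's change in 6 cell groups.

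Cells with at least 3 G2/M genes were deeper than their neighbours. Over 38 pairs of a type and a library, their median UMIs were 0.811 to 5.16 times those of the other cells of the type, with a median of 2.0 and a ratio above 1 in 37. At day 3 HEV-like cells with the genes had 13457 and 12276 UMIs against 10524 and 9260, Treg-like cells 22597 and 29813 against 6556 and 9775 and Gzmb-led T cells 39614 and 43210 against 9715 and 12962. Day 3 HEV-like cells with the genes had Cdh5 at 482 and 504 CPM against 460.0 and 586 CPM in the others. The HEV gene Glycam1 was at 13200 and 4690 CPM against 23600 and 12000 CPM, lower in both libraries, and the T cell gene Cd3e at 0 and 4.80 against 0.91 and 3.21 CPM. Doublet scoring had removed 6.23 to 35.4% of the cells with at least 3 G2/M genes in a library and 4.38 to 9.54% of the others. The CD31 libraries of vehicle Cre-negative and day 7 Cre-negative mice were at the ends of that range, with 6.23 and 35.4%. With doublets kept, the day 7 minus vehicle difference in blood endothelial-like cells was −0.741 percentage points in the Cre-negative libraries, against −1.13 without them. In Gzmb-led cells with the genes, Cd8a was seen in 94 and 97.8% of the day 3 cells. In the few-UMI mixed cluster, left out of every named type, 40.2% of the day 3 Cre-positive and 11.7% of the vehicle Cre-negative cells had at least 3 G2/M genes.

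Other genes of the cycle were taken from lists of 38 further S genes, 56 further G2/M genes, 12 transcription factors, 9 G1 cyclins and their kinases, and 12 CDK inhibitors and pocket proteins. In T cell-like cells at day 3, edgeR called 37 of 38 S, 51 of 56 G2/M and 10 of 12 transcription factor genes higher, with median log2 changes of 1.61, 1.81 and 1.53, where 14.7% of all genes were called higher and 5.96% lower. Of the G1 cyclins and kinases 5 rose and 1 fell, and of the 11 inhibitors and pocket genes tested 3 rose and 2 fell. Orc6 (origin recognition, log2 change 1.43, SE 0.11, adjusted p = 0.00155) led the S list and Ndc80 (kinetochore, log2 change 1.53, SE 0.12, adjusted p = 0.00155) the G2/M list. Mybl2, the B-Myb factor, was at 2.76 and 2.28 CPM in vehicle, 15.4 and 21 at day 3 and 2.16 and 6.27 at day 7 in T cell-like cells (log2 change 2.84, SE 0.33, adjusted p = 0.00203). Foxm1 had log2 change 1.66, SE 0.24, adjusted p = 0.00381, E2f1 log2 change 1.69, SE 0.48, adjusted p = 0.0423, the PCNA-binding factor gene Pclaf log2 change 2.47, SE 0.25, adjusted p = 0.00155 and Ccne2, cyclin E2, log2 change 2.48, SE 0.26, adjusted p = 0.00155. The D-type cyclins, which act at the start of G1, did not move with these. Ccnd2 was at 308 and 352 CPM in vehicle, 202 and 249 at day 3 and 330.0 and 331 at day 7 (log2 change −0.55, SE 0.11, adjusted p = 0.0135). Ccnd3 had log2 change −0.36, SE 0.13, adjusted p = 0.0934 and Ccnd1 log2 change 0.19, SE 0.50, adjusted p = 0.825. Among inhibitors, Cdkn2c (p18) rose (log2 change 1.19, SE 0.16, adjusted p = 0.0032), while Cdkn1a (p21), Cdkn1b (p27) and Cdkn1c (p57) did not pass, with log2 changes of 0.34 (SE 0.28), −0.21 (SE 0.10) and 0.85 (SE 0.36).

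In blood endothelial-like cells none of these genes was called at day 3 by edgeR. Unadjusted p-values under 0.05 were found for 36 of 38 S, 52 of 56 G2/M, 9 of 12 transcription factor, 4 of 9 G1 and 4 of 12 inhibitor genes, with median log2 changes of 1.18, 1.80, 0.98, 0.22 and 0.00. Of all genes, 24.3% had such a p. Pclaf had log2 change 2.55, SE 0.50, adjusted p = 0.0764, Ccne2 log2 change 2.08, SE 0.32, adjusted p = 0.0681, Foxm1 log2 change 1.97, SE 0.52, adjusted p = 0.107, Mybl2 log2 change 1.62, SE 0.22, adjusted p = 0.0681 and E2f1 log2 change 1.21, SE 0.62, adjusted p = 0.297. The inhibitors Cdkn1a, Cdkn1b, Cdkn1c and Cdkn2c had log2 changes of −0.13 (SE 0.12), −0.33 (SE 0.10), −0.07 (SE 0.58) and 0.46 (SE 0.16), and Ccnd1, Ccnd2 and Ccnd3 0.22 (SE 0.24), 0.09 (SE 0.41) and 0.22 (SE 0.16). In HEV-like cells 11 of 38 S and 23 of 54 tested G2/M genes of these lists rose, against 3.02% of all genes, with Cks1b (log2 change 2.09, SE 0.22, adjusted p = 0.0245), Ccne2 (log2 change 2.18, SE 0.33, adjusted p = 0.0275) and Foxm1 (log2 change 2.66, SE 0.60, adjusted p = 0.0497) among them, and Btg2, an antiproliferative gene, fell (log2 change −1.38, SE 0.24, adjusted p = 0.0324). In fibroblast-like cells 19 of 38 S and 38 of 56 G2/M genes rose, against 6.05% of all genes, with Pclaf (log2 change 4.97, SE 0.86, adjusted p = 0.0212), Foxm1 (log2 change 2.16, SE 0.40, adjusted p = 0.0239) and Ccnd2 (log2 change 1.10, SE 0.19, adjusted p = 0.0197), and Cdkn1c fell (log2 change −1.28, SE 0.30, adjusted p = 0.0401).

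The label comparison set the 3 Cre-positive against the 3 Cre-negative libraries of a fraction, with treatment in the fit. edgeR called 0 of the 45 genes in each of the blood endothelial-like, lymphatic endothelial-like, T cell-like and B cell-like classes, and the label contrast of other classes is not reported here. In blood endothelial-like cells the median difference was 0.17 on the log2 scale (0.00685% of all genes passed, 0 of the 45 and 2.64% of all genes had an unadjusted p under 0.05, and DESeq2 called 0). For T cell-like cells it was −0.16 (0.0159% of all genes), with 3 unadjusted p-values under 0.05 (15.4% of all genes had one) for Stmn1 at −0.48 (SE 0.17), Nusap1 at −0.26 (SE 0.11) and Tubb5 at −0.24 (SE 0.08), and 0 calls in DESeq2. In B cell-like cells it was 0.41 (0% of all genes), with 0 unadjusted p-values under 0.05 (5.53% of all genes had one) and 0 calls in DESeq2. In lymphatic endothelial-like cells, where 43 of the 45 were tested, it was −0.65 (0.0169% of all genes), and DESeq2 called 0. There 23 had an unadjusted p under 0.05, as did 3.57% of all genes, and 42 of 43 had a negative difference, as did 51% of all genes.

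In lymphatic endothelial-like cells an unadjusted edgeR p under 0.05 was found for 16 of 22 tested G2/M and 7 of 19 S genes. Of all genes, 3.57% had such a p. The genes were measured in the same libraries and cells, so they are not separate observations. Nusap1 was at 12.4 and 6.09 CPM in vehicle, 27.8 and 12.5 at day 3 and 21.99 and 7.22 at day 7 (log2 change −1.23, SE 0.23, adjusted p = 0.246). Cenpf was at 33.04 and 16.5 CPM in vehicle, 37.2 and 17.6 at day 3 and 36.6 and 22.99 at day 7 (log2 change −0.85, SE 0.18, adjusted p = 0.429). Top2a had log2 change −0.74, SE 0.17, adjusted p = 0.668. The Cre-positive library was the lower of the pair at each time for Nusap1. The edgeR count changed without either vehicle library and without either day 7 library, and did not change without either day 3 library. The share of lymphatic cells differed between the Cre groups most in vehicle, with 2.74% (19 of 694 cells, interval 1.66 to 4.24%) in the Cre-negative and 0.445% (2 of 449 cells, interval 0.054 to 1.60%) in the Cre-positive library. At day 7 the share was slightly higher in the Cre-positive library. In free RNA the G2/M level of the Cre-positive library was lower than that of the Cre-negative library in vehicle, at 354 against 962 CPM. It was higher at day 3, at 3584 against 2089 CPM, and at day 7, at 704 against 298 CPM. The part of free RNA was not tested.

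Among the cycle regulators, the level of Cdkn1a, the p21 inhibitor, separated the Cre groups in both endothelial classes. It was at 94.4 and 202 CPM in vehicle, 92.3 and 158 at day 3 and 122 and 219 at day 7 in blood endothelial-like cells (log2 change 0.91, SE 0.10, adjusted p = 0.407). In lymphatic endothelial-like cells it was at 54.3 and 92 CPM in vehicle, 62.5 and 136 at day 3 and 52.1 and 140.0 at day 7 (log2 change 1.16, SE 0.19, adjusted p = 0.109). T cell-like cells had it at 4.84 and 4.88 CPM in vehicle, 4.47 and 8.10 at day 3 and 4.56 and 4.08 at day 7 (log2 change 0.17, SE 0.23, adjusted p = 0.771). In both endothelial classes the lowest Cre-positive value exceeded the highest Cre-negative value, and neither fit passed the threshold. This gene was singled out after its values were seen.

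Among the endothelial, T cell and fibroblast types reported here, ordered by the highest share of cells with at least 3 G2/M genes in a day 3 library, Gzmb-led T cells came first, then Treg-like cells (those with the genes had less Foxp3 than the rest), tip-like cells, the fibroblast/mural-like cells of the CD31 libraries, the fibroblast clusters led by Fabp7, Cxcl13 and Lepr, and HEV-like cells. The intervals of tip-like and Lepr-led cells overlapped, with 16.1% (72 of 447 cells, interval 12.8 to 19.9%) and 11.2% (77 of 689 cells, interval 8.92 to 13.8%). They also overlapped for Lepr-led and HEV-like cells, with 10.1% (56 of 555 cells, interval 7.71 to 12.9%) in the latter. Among the lowest day 3 shares of these types were Pi16-led fibroblasts with 0 in both libraries and capillary-like cells with 0.183% (3 of 1637 cells, interval 0.0378 to 0.535%). CD4 T-like cells had 0 of 857 cells in the CD45 Cre-negative library, which allows up to 0.35%. In the CD31 libraries their day 3 share was 1.32 and 3.65 percentage points above vehicle. The fractions were prepared and sequenced as separate libraries, so the order between CD31 and CD45 types is a description of these libraries.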

How the data were processed

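Single cells of 12 libraries were sequenced with a 10x 3′ kit. Per the labels' protocols its chemistry is V2. The submitters' processing notes name Cell Ranger 7.0.1 and mm10, while the file headers name Cell Ranger 4, and which version made the matrices was not settled. The deposited values are raw counts of UMIs per gene for every barcode, per the file headers, and the authors' own cell calls were not used here.

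Barcodes needed at least 1000 UMIs, 500 genes and a mitochondrial share of no more than 10%. The barcodes with the highest doublet scores were removed, 0.8% per 1000 barcodes, because the automatic threshold marked almost none in several libraries. In the 2 libraries with most of the few-UMI cluster, the barcodes removed had fewer UMIs than those kept, with medians of 2157 against 3434 and 3702 against 4329, and in the other 10 they had more. Each fraction was clustered with scanpy 1.11.5 on 2000 variable genes without cycle, histone, immune receptor, mitochondrial and ribosomal genes. Clusters were named from marker lists, and different clusters may hold a class in different libraries. The mRFP row of 4 CD31 matrices was left out. These were the vehicle, day 3 and day 7 Cre-positive libraries and the day 7 Cre-negative library. An endothelial cluster counted in the blood endothelial-like class is not reported here on its own.

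UMIs were summed per class and library and tested with edgeR 4.0.16 (quasi-likelihood, TMM, filterByExpr). SE stands for the absolute log2 change divided by the square root of the quasi-likelihood F statistic. With 2 residual degrees of freedom it is no basis for a normal interval. Alternatives were edgeR's RLE scaling, DESeq2 1.42.0, every gene with at least 1 count, doublets kept, cells with at least 2000 UMIs, shares with at least 2 G2/M genes or without thinning, and each library left out. The fits of HEV-like and fibroblast-like cells, the addition of the few-UMI cluster and the removal of germinal centre B-like cells were chosen after seeing the data. On simulated data for blood endothelial-like cells at day 3 (14936 genes), edgeR recovered 35% of 100 genes changed 2-fold and 100% of 100 changed 4-fold, with 1 false call among 136, at a simulated dispersion of 0.04. In the real libraries of this class none of the 45 was called at changes of up to 2.78 on the log2 scale, so the simulation does not give the power there.

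The 45 genes and the other gene lists were chosen with earlier results of these data known. Genes named beyond them followed a rule: 10 fixed members and up to 8 of lowest p per contrast, the 2 S and 2 G2/M genes of highest mean in unfitted classes, and for other lists 12 fixed regulators and up to 4 called genes of lowest p. Not every gene the rule allows is printed.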

Additional observations from a re-analysis of the deposited data

Results flagged for a closer look

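The change in the share of cells with at least 3 G2/M genes from vehicle to day 7 had opposite signs in the Cre groups in all 6 fitted classes, with a lower share at day 7 in the Cre-negative and a higher one in the Cre-positive libraries. In 2 of them, blood endothelial-like and B cell-like cells, the intervals of vehicle and day 7 did not overlap in either Cre group. In blood endothelial-like cells the difference was −1.13 percentage points in the Cre-negative and 1.06 in the Cre-positive libraries. Doublet scoring had removed 35.4% of the cells with these genes in the day 7 and 6.23% in the vehicle Cre-negative library, and with doublets kept the differences were −0.741 and 1.07. In B cell-like cells it was −2.54 percentage points in the Cre-negative and 3.53 in the Cre-positive libraries. The other differences, Cre-negative first, were −1.87 and 1.08 in T cell-like, −1.23 and 1.17 in lymphatic endothelial-like, −1.53 and 0.301 in HEV-like and −0.421 and 0.514 in fibroblast-like cells. The summed G2/M level did not always move with the share. At day 7 it was 1.1 times vehicle in Cre-negative lymphatic endothelial-like cells and 0.92 times vehicle in Cre-positive HEV-like cells. HEV-like cells are also part of the blood endothelial-like class. The classes of a fraction come from the same libraries, and both fractions were divided from digested node cells. The 6 classes are therefore not separate observations. From vehicle to day 3 the signs of the share differences were opposite in B cell-like cells alone of the 6, with −2.48 and 0.0529. Each side is 1 library against 1, so the difference between the Cre groups was not tested. The vehicle Cre-negative and day 7 Cre-positive CD45 libraries held 209 and 246 germinal centre B-like cells, against 14 or fewer in the other 4. The G2/M level in free RNA also was lower at day 7 than in vehicle in the Cre-negative and higher in the Cre-positive libraries of both fractions, and its part was not tested.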

How the results depend on the processing

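Of the alternative values, 194 stayed near the main count of calls or within the counting error of a share difference. Another 39 became larger counts of calls, 11 smaller ones, and the other 12 left the counting error of a share difference. The sign of a difference in shares changed in 6 of 28 alternatives, all of them at day 7 except 1 in B cell-like cells at day 3. Some of these sign changes stayed within the counting error. No paired analysis was possible because each group holds 1 library and the labels give no replicate number shared by several samples.

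The number of the 45 genes called in blood endothelial-like cells was 30 at day 3 against vehicle and 28 at day 7 against day 3 with DESeq2, and 45 and 43 with every gene of at least 1 count, against 0 and 0. With every gene of at least 1 count it was 8, 3 and 6 in lymphatic endothelial-like cells for day 3 against vehicle, day 7 against day 3 and label, 1 in T cell-like cells for label, 43 and 43 in HEV-like cells for day 3 against vehicle and day 7 against day 3, and 43 in fibroblast-like cells for day 7 against day 3. The share of all genes called with every gene of at least 1 count is not given here. Whether the counts of the 45 under that setting exceed that share was not tested. DESeq2 called 11 in HEV-like cells at day 3, and with doublets kept 0 were called in fibroblast-like cells at day 7 against day 3. The causes of these differences between settings were not tested. For every count with 1 library left out, above and in the next paragraph, the share of all genes called is not given. Whether those counts of the 45 exceed that share was not tested, so a rise in them cannot be told from a rise over all genes. Such a fit also has fewer than 2 residual degrees of freedom.

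With 1 library left out, the count in blood endothelial-like cells ranged from 0 to 45 at day 3 against vehicle and from 0 to 42 at day 7 against day 3, and was 0 in the other 2 contrasts. In lymphatic endothelial-like cells it ranged from 0 to 7 (day 3 against vehicle), 0 to 4 (day 7 against vehicle), 0 to 6 (day 7 against day 3) and 0 to 3 (label). In T cell-like cells it ranged from 42 to 45, 0 to 3 and 33 to 45, with 0 for label. In B cell-like cells it ranged from 0 to 4, 0 to 9 and 0 to 36, with 0 for label. In HEV-like cells it ranged from 0 to 39 at day 3 against vehicle and 0 to 38 at day 7 against day 3, and in fibroblast-like cells from 0 to 43 and 0 to 44.

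The mean difference in the share of cells with G2/M genes, day 3 minus vehicle, was 6.08 percentage points in blood endothelial-like cells. It was 8.06 with at least 2 genes, 11.3 without thinning and 10.2 with the few-UMI cluster added. At day 7 it was −0.0352, with 0.622 without thinning, 0.162 with doublets kept and −0.605 with that cluster, so its sign is not settled. In lymphatic endothelial-like cells the day 3 value of 1.61 became 4.38 without thinning, and the day 7 value of −0.0333 became −1.4, 0.318 with at least 2 genes and 0.19 with doublets kept. In T cell-like cells the day 3 value of 10.7 became 13 with at least 2 genes and 16.2 without thinning. In B cell-like cells the day 3 value of −1.21 became −1.66 with at least 2 genes and 0.133 without the germinal centre B-like cells, and the day 7 value of 0.499 became −0.0716 without thinning. With 1 library per group and 2 residual degrees of freedom, edgeR called none of the day 3 changes in blood endothelial-like cells, the largest of them 2.78 on the log2 scale, and called changes down to 0.80 in T cell-like cells.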
